A study of Mus musculus with 4 samples.

Results

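Integrins and laminins were measured as a family in bone marrow stromal cells of mice with a myeloproliferative neoplasm (MPN) and of a control mouse. All genes with a single symbol in the platform annotation that begins with Itga, Itgb or Lam followed by a, b or c and a digit were taken, with the probe set of the highest mean over the 4 arrays for each gene. This gave 41 of 19938 genes. Of these, 27 encode integrin chains, 10 encode laminin chains, and 4 are named after integrins without being chains.

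The cells were sorted from marrow of C57BL/6 mice by the absence of CD45, CD31 and Ter119 and the presence of green fluorescent protein, which the nestin promoter drives (Nes-gfp). The recipients were taken 10 weeks after transplantation. The 3 MPN mice had received cells carrying Mx1-cre, an interferon-inducible recombinase, and JAK2-V617F, an activating mutation of the kinase, and the 1 control mouse had received control cells. Per the design text, the reporter belonged to the recipients of both groups. Each array came from 1 mouse. The sources used here give no ages.

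Integrins are receptors made of an alpha and a beta chain that tie a cell to matrix or to another cell. The beta chain Itgb2 is the chain of leukocyte integrins, Itga2b with Itgb3 forms the fibrinogen receptor of platelets, and mesenchymal cells use chains that bind collagen, fibronectin and vitronectin, most of them paired with Itgb1. Laminins are trimers of an alpha, a beta and a gamma chain that build basement membranes, and the sheath around marrow vessels is known for Lama4 and Lama5 chains.

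Values are deposited log2 values, and a difference is the mean of the MPN arrays minus the control array with its standard error (SE) from limma, n = 3 against 1. The spread comes from the MPN mice alone. None of the 19938 genes passed limma at an adjusted p of 0.05 (0% called, smallest adjusted p = 0.0871). At an unadjusted p under 0.05, 3.97% of all genes were higher (791) and 8.63% lower (1720), and of the members 3 were higher and 12 lower by limma. Differences of members are therefore described by size and array by array. A background limit of 5.21 was set from olfactory and vomeronasal receptor genes, and 30 of the 41 members lay above it in either group (60% of all genes did), 16 of them in both. The median of the differences was 0.18 over all genes and 0.255 over the receptor genes, and a small positive difference should be read against that shift. Nes lay under the limit on all 4 arrays (4.56, 3.92 and 4.26 against 4.26), so the transcript behind the reporter was not detected above background. Ptprc, which encodes CD45, read 10.16, 9.46 and 10.40 in the MPN mice against 7.07. Xist, the transcript that silences an X chromosome, read 8.97 ± 0.52 (SD, n = 3) in the MPN mice and 3.30 in the control, and the Y-linked genes Eif2s3y, Kdm5d and Uty lay lower by -4.32, -3.56 and -3.10. The pattern of these sex-linked genes and the MPN group cannot be told apart.

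Among the leukocyte integrin chains, only Itgam was at least 2-fold higher on each MPN array, while Itgb2 and Itgax had MPN mice on both sides of the control. Of the 11 mesenchymal chains 6 were at least 2-fold lower in every MPN mouse, Itgb5, Itga1, Itgav and Itgb1 the most. Itga5 was higher in each by less than 2-fold, and Itga8 lay under the background limit on every array. The platelet chains Itga2b and Itgb3 differed by 0.47 and -0.11. In size, 11 of the 41 members were at least 2-fold lower in every MPN mouse, and 5.78% of all genes were. The 11 were Itga1, Itga9, Itga10, Itga11, Itgav, Itgb1, Itgb5, Lama2, Lama4, Lamb1 and Lamc1. Only 1 member, Itgam, was at least 2-fold higher on each MPN array, where 1.13% of all genes were. The median difference was 0.93 over the 8 leukocyte chains, 0.18 over the 2 platelet chains, -1.42 over the 11 mesenchymal chains and -0.32 over the 10 laminin chains, and 0.18 over all genes. The mesenchymal group holds the collagen-binding and RGD-binding alpha chains with Itgb1, Itgb5, Itgb6 and Itgb8 and was set with results of these data known. Its name is loose, since it counts Itga2, known from platelets and epithelium, and the epithelial Itgb6, and leaves out Itga9. The median depends on that choice. Among members above background, a choice that favours those that differ, the mesenchymal median was -2.18 and the laminin median -0.97, and the laminin median was -0.58 after the arrays were shifted to 1 median of the receptor genes.

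**Figure D1:**
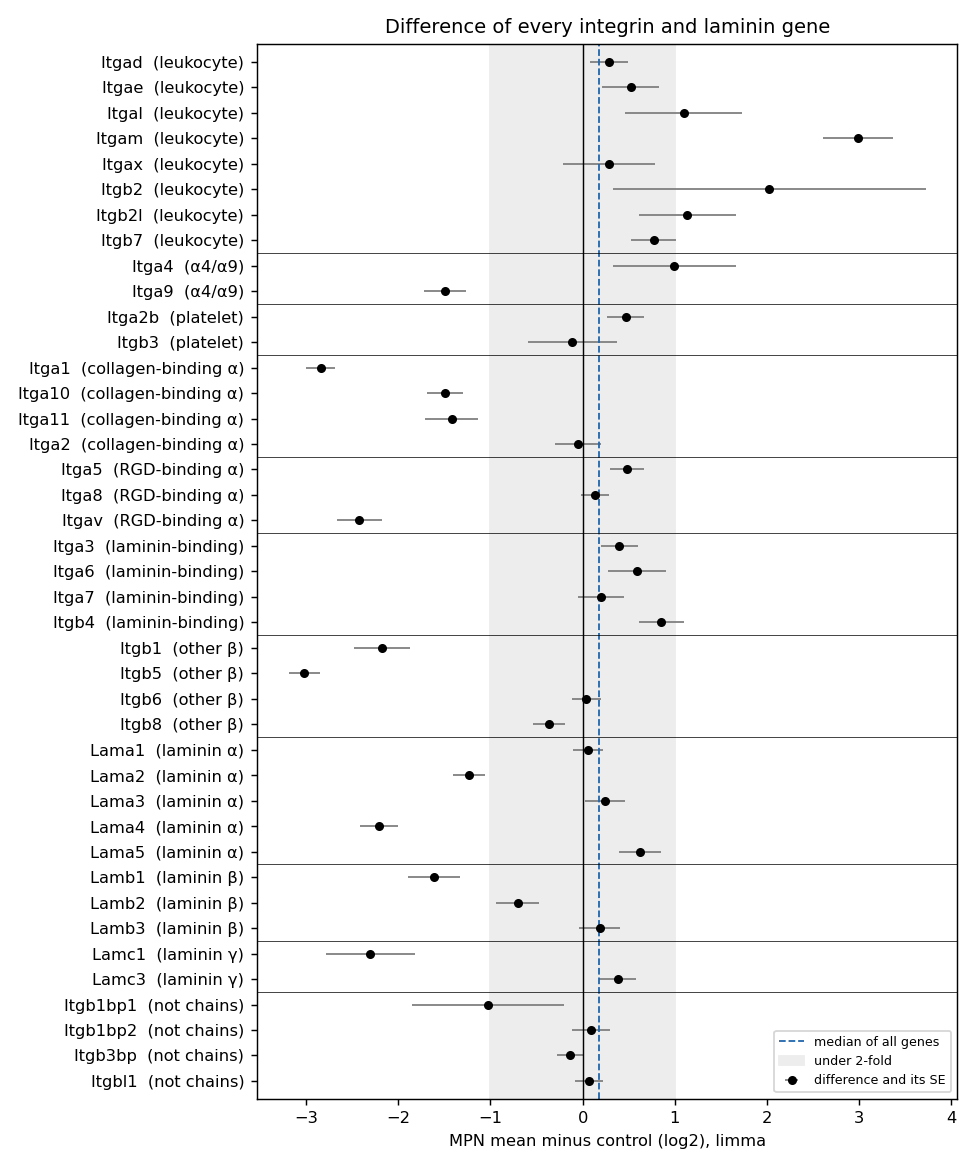
Difference of each of the 41 members (log2, MPN mean minus control, points) with the standard error from limma (bars), ordered by role. Itgam at 2.99 has the highest value, Itgb5 at -3.02 the lowest, and the grey band marks differences under 2-fold.

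Itgam, the alpha chain CD11b of myeloid cells and part of the complement receptor Mac-1, was at 7.34, 7.54 and 8.10 in the MPN mice and 4.67 in the control mouse. The MPN mice lay close together and well above the control, which was under the background limit. The difference was 2.99 (SE 0.38, adjusted p = 0.138 with limma), a 7.94-fold higher value, and 2.45 when measured from the background limit in place of the control. The 250 bases before the Itgam start are shown because this was the member with the highest difference, and its promoter is a textbook target of the myeloid factor PU.1. The window is chr7:128062390-128062639, plus strand (GRCm38.p6, sequence from RefSeq, 5′ to 3′), and capitals mark matches on either strand to the PU.1 core GAGGAA or the SP1 box GGGCGG.
Itgam: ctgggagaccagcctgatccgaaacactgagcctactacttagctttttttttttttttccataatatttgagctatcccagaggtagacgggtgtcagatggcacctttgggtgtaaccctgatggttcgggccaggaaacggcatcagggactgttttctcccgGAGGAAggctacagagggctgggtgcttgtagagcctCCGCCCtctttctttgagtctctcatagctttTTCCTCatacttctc
The PU.1 core was found at 84 and at 15 bases before the start, the latter on the opposite strand, and an SP1 box at 47 bases. Of all 32851 promoter windows of this length, 23.3% held the PU.1 core and 32.7% the SP1 box. A match of 6 letters is a description of the sequence and shows no binding.

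Itgb2, the beta chain CD18 that pairs with Itgam, Itgal, Itgax and Itgad, was at 8.64, 5.32 and 8.61 in the MPN mice and 5.50 in the control mouse. Mice 1 and 3 lay higher than the control by 3.14 and 3.11, and mouse 2 lay lower by -0.18, so the groups overlapped. The difference of 2.03 (SE 1.70, adjusted p = 0.583 with limma) was therefore about as large as its error. On the array of mouse 2, Itgam (7.54) and Ptprc (9.46) were above their control values. Of 18 neutrophil markers measured, 14 were at least 2-fold higher on each MPN array, that of mouse 2 included, such as Mmp8 at 10.77, 10.19 and 11.04 against 5.90. Among the other 4, Cxcr2, a chemokine receptor chosen after its values were seen, was low in mouse 2 as Itgb2 was, at 9.78, 4.20 and 9.46 against 3.84. Without mouse 2, the members at least 2-fold higher on each remaining MPN array were 3: Itgam, Itgb2 and Itgb2l.

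Itgal, the CD11a chain that forms the lymphocyte and myeloid receptor LFA-1 with Itgb2, was at 6.81, 5.47 and 5.82 against 4.93. All MPN arrays lay above the control, with mouse 1 highest, and the difference of 1.10 had an SE of 0.63. Itgb2l, a close relative of Itgb2, was at 6.54, 5.92 and 7.05 against 5.37, a difference of 1.14 (SE 0.52). Because the sequences of Itgb2l and Itgb2 are related, some shared signal between their probes was possible and was not tested. Itgb7, which pairs with Itga4 or Itgae in the homing and retention of lymphocytes in gut, was at 5.48, 5.70 and 5.25 against 4.70. These MPN values lay just above the background limit, and the difference of 0.77 had an SE of 0.25.

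The remaining leukocyte chains stayed close to the control or to background. Itgad, a CD11 chain of macrophages, was at 5.91, 6.08 and 5.76 against 5.63, a difference of 0.29 (SE 0.20), and its other probe set read 5.61, 5.35 and 5.16 against 5.05. Itgae, the chain of lymphocytes that adhere to epithelium, was at 5.03, 4.71 and 4.42 against 4.20, under the background limit on each array. Itgax, the CD11c chain of dendritic cells, was at 4.33, 4.89 and 3.83 against 4.07, with MPN arrays on both sides of the control and all under the limit. In all, 6 of the 8 leukocyte chains had every MPN array above the control. So did 46.8% of all genes and 848 of the 1190 receptor genes that set the background limit.

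Pan-leukocyte markers were higher on the MPN arrays, by more than most of these chains. Their median difference was 2.32, against 0.93 over the 8 leukocyte chains. All 16 pan-leukocyte genes lay above the control on each MPN array, and 11 were at least 2-fold higher on each. Their mean log2 value was 8.72 to 9.20 in the MPN mice and 6.69 in the control mouse. The 18 neutrophil and granulocyte precursor genes had means of 9.34 to 10.50 against 7.08. At least 2-fold higher on each MPN array were 2 of 12 monocyte and macrophage genes and 0 of 12 T and natural killer cell genes, and 1.13% of all genes. Of the monocyte and macrophage genes 1, Vcam1, was at least 2-fold lower on each. Only 2 of the 12 T and natural killer cell genes lay above background in either group. In bulk samples of sorted cells, more cells of a type and more RNA per cell cannot be told apart, and the part of these cells in the values of Itgam and Itgb2 was not tested.

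**Figure D2:**
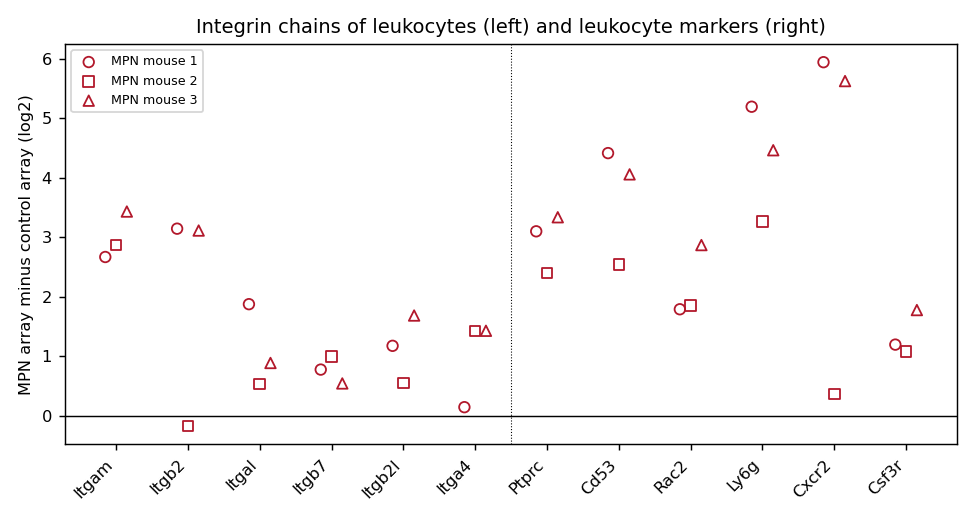
MPN array minus control array (log2) for 6 integrin chains used by leukocytes, left of the dotted line, and 6 leukocyte or neutrophil markers, right of it, picked after their values were seen to show mouse 2. Each symbol is 1 MPN mouse. The leukocyte chains Itgad, Itgae and Itgax, which stayed close to the control or to background, are left out, and Itga4 is added from another group. Mouse 2 lies at -0.18 for Itgb2 and at 2.87 for Itgam.

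The platelet chains were near their control values. Itga2b, the CD41 chain of megakaryocytes and platelets, was at 5.78, 5.83 and 5.54 against 5.25, and the small difference of 0.47 (SE 0.20) had the same sign on each array. Itgb3, which pairs with Itga2b on platelets and with Itgav on other cells, was at 5.46, 6.24 and 5.25 against 5.77. Mouse 2 lay above the control and mice 1 and 3 below it, giving -0.11 (SE 0.48), and without mouse 3 the sign turned to 0.086. Of 12 megakaryocyte and platelet markers measured, 10 lay above the control on each MPN array and 1 was at least 2-fold higher on each. Of all genes, 46.8% lay above the control on each MPN array and 1.13% were at least 2-fold higher on each. Of the 1190 receptor genes that set the background limit, 848 lay above the control on each MPN array. The mean value of the markers was 5.56, 6.24 and 5.58 against 4.89, so mouse 2 was highest for these markers as it was for Itgb3.

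Collagen-binding alpha chains were lower on the MPN arrays, except for Itga2. Itga1, a receptor for basement membrane and fibrillar collagen on mesenchymal and smooth muscle cells, was at 5.16, 5.03 and 5.13 in the MPN mice against 7.95. All MPN values sat just under the background limit, close to each other and far from the control. The difference was -2.84 (SE 0.16, adjusted p = 0.0871 with limma), and -2.74 when measured down to the limit. Itga1 passed the threshold after cyclic loess (adjusted p = 0.0485) and after shifting the arrays to 1 median of the receptor genes (adjusted p = 0.0465).

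Itga10, a collagen receptor first known from cartilage, was at 5.31, 5.55 and 5.57 against 6.97, a difference of -1.49 (SE 0.19). Itga11, the fibroblast receptor for fibrillar collagen, was at 6.01, 5.46 and 5.66 against 7.13, a difference of -1.42 (SE 0.29). For both genes the MPN arrays stayed above the background limit and did not overlap the control. Itga2, the collagen receptor of platelets and epithelium, was at 5.36, 5.15 and 4.91 against 5.19, with mice on both sides of the control and a difference of -0.05 (SE 0.25).

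Among the alpha chains that recognise the RGD motif of fibronectin and vitronectin, only Itgav was lower. It pairs with several beta chains, Itgb3 and Itgb5 among them, and its receptors can release active TGF-beta from its latent complex. Itgav was at 6.18, 6.24 and 6.59 in the MPN mice against 8.76, above background on all 4 arrays. The difference was -2.43 (SE 0.24, adjusted p = 0.107 with limma), a 5.37-fold lower value. Itga5, the classical fibronectin receptor chain, was at 5.18, 5.41 and 5.41 against 4.85, and its difference of 0.49 (SE 0.18) lay near the limit. Itga8, a chain of smooth muscle and kidney mesenchyme, was at 4.39, 4.48 and 4.46 against 4.31, under the limit on each array.

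The beta chains of mesenchymal cells were split in the same way. Itgb5, the vitronectin receptor partner of Itgav, was at 4.60, 4.52 and 4.40 in the MPN mice and 7.53 in the control mouse. The MPN arrays lay at background and the control well above it, and the difference of -3.02 (SE 0.17, adjusted p = 0.0871 with limma) was the lowest of the 41 members. Measured down to the limit it was -2.32, a 4.99-fold difference. Like Itga1, Itgb5 passed after cyclic loess (adjusted p = 0.0485) and after the shift to 1 median of the receptor genes (adjusted p = 0.046). Itgb1, the common beta chain of most matrix receptors, was at 8.25, 8.45 and 8.84 against 10.69, above background on all arrays. Its difference of -2.18 (SE 0.30, adjusted p = 0.148 with limma) was a 4.52-fold lower value.

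The promoter windows of the partners Itgav and Itgb5 are shown because both chains of the pair were lower, with capitals for the same motifs and 250 bases before each start (GRCm38.p6, RefSeq, 5′ to 3′). Itgav lies at chr2:83724147-83724396, plus strand, and Itgb5 at chr16:33829415-33829664, plus strand.
Itgav: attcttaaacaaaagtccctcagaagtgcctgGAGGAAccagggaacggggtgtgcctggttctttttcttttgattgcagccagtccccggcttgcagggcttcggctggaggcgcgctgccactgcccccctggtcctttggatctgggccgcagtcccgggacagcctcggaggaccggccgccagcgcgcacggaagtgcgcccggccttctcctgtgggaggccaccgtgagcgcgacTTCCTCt
Itgb5: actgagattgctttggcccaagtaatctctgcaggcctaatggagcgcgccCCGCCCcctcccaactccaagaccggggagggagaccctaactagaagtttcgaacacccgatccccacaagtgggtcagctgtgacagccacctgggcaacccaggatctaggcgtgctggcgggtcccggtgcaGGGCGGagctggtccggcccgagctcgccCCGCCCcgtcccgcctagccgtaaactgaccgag
Itgav held the PU.1 core at 218 bases and, on the opposite strand, at 7 bases before its start, and no SP1 box. Itgb5 held 3 SP1 boxes, at 199, 63 and 34 bases, and no PU.1 core. Of the 41 members, 27 had a window, 30 windows in all. The PU.1 core lay in 14 of these windows (46.7%) and in 23.3% of all windows. It lay in 5 of the 9 members at least 2-fold lower that had a window, and in the only such higher member. A link between the motif and the direction of a member was not tested. The SP1 box lay in 10 of the 30 windows (33.3%) and in 32.7% of all windows. The RUNX core TGTGGT and the EBF pair CCCNNGGG, searched on both strands, each lay in 2 of the 30, and in 14% and 11.8% of all windows.

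Itgb8, an activator of latent TGF-beta in glia and other cells, was at 4.80, 4.64 and 4.84 against 5.12, under the limit, with a difference of -0.36 (SE 0.17). Itgb6, the epithelial partner of Itgav, was at 3.72, 3.61 and 3.61 against 3.61, at the floor on all arrays. Over the 11 mesenchymal chains, 6 were at least 2-fold lower on each MPN array, 0 were higher by that size, and the median over the chains was -1.12, -1.42 and -1.40 in mice 1, 2 and 3. Of 14 perivascular stromal markers, 13 were at least 2-fold lower on each MPN array (mean values 5.56 to 6.23 against 9.25), as were 8 of 8 bone-forming cell markers (6.25 to 7.005 against 9.98). These cells' markers were lower, as the 6 chains were, and the part of these cells in the lower chain values was not tested.

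**Figure D3:**
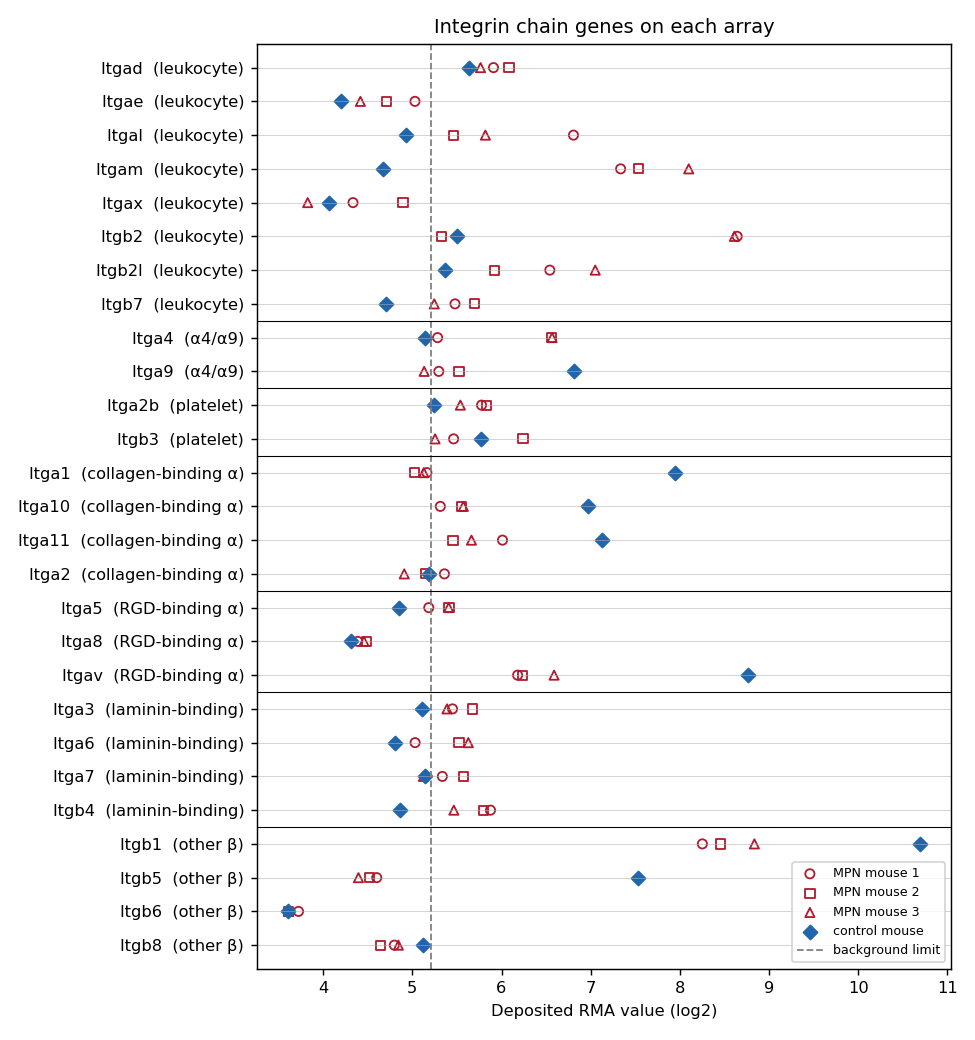
Deposited log2 values of the 27 integrin chain genes on each array, by role, with open red symbols for the MPN mice, blue diamonds for the control mouse and a dashed line at the background limit of 5.21. Itga1, Itgav, Itgb1 and Itgb5 have their MPN symbols together to the left of the control, and Itgam has them to the right.

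Itga4 and Itga9 are close relatives that both bind Vcam1 and fibronectin, and they lay on opposite sides. Itga4, the chain that holds blood progenitors and leukocytes to stroma, was at 5.28, 6.56 and 6.57 against 5.14, with mice 2 and 3 higher by 1.42 and 1.43 and mouse 1 by 0.14. The difference was 1.00 (SE 0.67). Without mouse 1, Itga4 joined Itgam as at least 2-fold higher on each remaining MPN array. Itga9, found on muscle, lymphatic endothelium and neutrophils, was at 5.30, 5.52 and 5.13 against 6.81, a difference of -1.49 (SE 0.23) with no overlap. The ligand Vcam1 was lower on the same arrays.

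Of the 4 chains grouped here as laminin-binding, 0 were 2-fold apart on each array. Itgb1, which pairs with Itga3, Itga6 and Itga7 in laminin receptors, is given above with the beta chains and was lower in each MPN mouse. Itgb4, the hemidesmosome chain of epithelium and also of Schwann cells, was at 5.88, 5.80 and 5.47 against 4.86, a difference of 0.85 (SE 0.24). Its MPN values lay above the limit and the control under it, so part of this size depends on background. Itga6, its usual partner and a chain of platelets and progenitors, was at 5.03, 5.52 and 5.63 against 4.80, a difference of 0.59 (SE 0.32). Itga3 was at 5.45, 5.68 and 5.39 against 5.11 and had a difference of 0.40 (SE 0.20). Itga7, the laminin receptor of muscle, was at 5.34, 5.58 and 5.12 against 5.14, with mouse 3 below the control. After the receptor gene shift its difference turned from 0.20 to -0.055.

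The laminin chains that were lower on each MPN array were Lama2, Lama4, Lamb1, Lamb2 and Lamc1. Lama4, an alpha chain of vessels, muscle and fat, was at 5.17, 5.12 and 5.42 in the MPN mice against 7.45. The MPN arrays were at the background limit and did not overlap the control, and the difference was -2.21 (SE 0.20, adjusted p = 0.0977 with limma), a 4.63-fold lower value. Lama2, the alpha chain of muscle and nerve whose loss causes muscular dystrophy, was at 4.82, 4.72 and 4.60 against 5.95, a difference of -1.23 (SE 0.17). Since its MPN values were under the limit, the difference down to the limit was -0.74.

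Lamc1, the gamma chain shared by most laminins, was at 6.62, 5.68 and 5.75 against 8.32. Mouse 1 was highest of the MPN mice and still below the control, and the difference was -2.30 (SE 0.49, adjusted p = 0.244 with limma). Lamb1, the beta chain that joins Lamc1 in many trimers, was at 6.39, 5.90 and 5.94 against 7.69, a difference of -1.62 (SE 0.28). Lamb2, the beta chain of synapses, kidney and vessel walls, was at 6.28, 6.15 and 5.88 against 6.80. Each MPN array was lower, but by less than 2-fold, with a difference of -0.70 (SE 0.23).

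The other laminin chains had no lower mean, Lama5 of the marrow vessel sheath among them. Lama5, the broadest alpha chain of adult basement membranes, was at 5.89, 5.92 and 5.56 against 5.17, so that it lay above the control on each array with a difference of 0.63 (SE 0.23). Lamc3 was at 6.30, 6.47 and 6.16 against 5.93, a difference of 0.38 (SE 0.20). Lamb3, a chain of the epithelial anchoring laminin, was at 5.45, 5.11 and 5.13 against 5.04, and Lama3, its alpha partner, at 5.16, 4.96 and 4.80 against 4.73. Lama1, the embryonic alpha chain, was at 5.16, 5.03 and 4.98 against 4.997. These last 3 genes had differences of at most 0.24, and each turned sign under at least 1 scaling. Of the 10 laminin chains, 4 were at least 2-fold lower on each MPN array and 0 higher. Each MPN array was below the control for 5 chains, and 21.1% of all genes were.

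**Figure D4:**
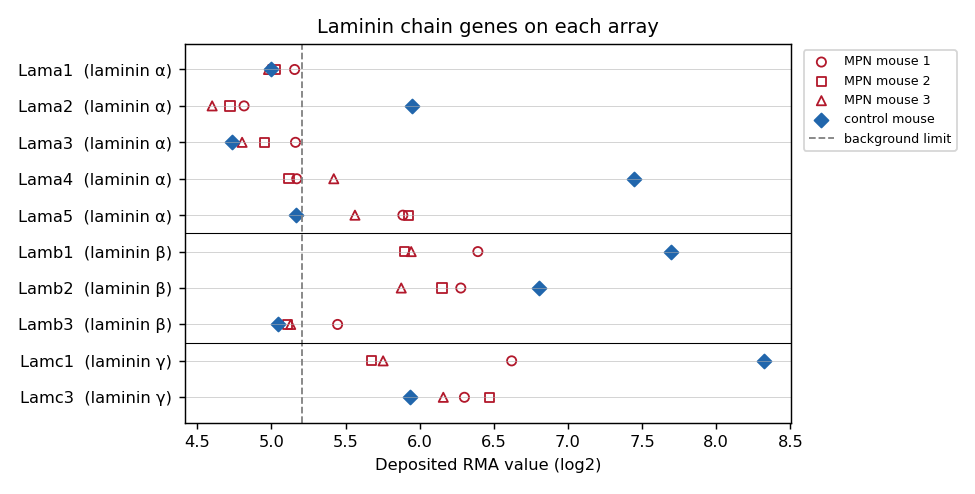
Deposited log2 values of the 10 laminin chain genes on each array, with symbols as for the integrin chains and the background limit dashed. Lama4, Lamb1 and Lamc1 have the control far to the right of the MPN symbols, and Lama5 has it to the left.

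Endothelial cells also make laminins, and the sort selected against CD31, which Pecam1 encodes. Of 14 endothelial markers, 0 were 2-fold apart on each array, with mean values of 4.95 to 5.19 against 4.72, and Pecam1 itself was at 5.36, 6.04 and 5.31 against 4.97. Smooth muscle and pericyte markers had 3 of 12 at least 2-fold lower and a mean of 5.36 to 5.40 against 5.84. The part of these cells in the lower Lama4 and Lamc1 values was not tested. Schwann cell markers, which matter for Lama2 and Itgb4, had 2 of 8 at least 2-fold higher (Mbp and S100b) and 0 lower. Of all genes, 1.13% were higher by that size. Only 4 of the 8 lay above the background limit in either group, and their median difference over all 8 was 0.43. Sox10, the factor that defines that lineage, was at 6.46, 6.44 and 6.15 against 5.91. Its difference of 0.44 (SE 0.21) stands beside a median of 0.255 over the receptor genes.

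Of the 4 genes named after integrins without being chains, 0 were 2-fold apart from the control on each MPN array. Itgb1bp1, which encodes a protein that binds the tail of Itgb1 and restrains it, was at 5.06, 5.38 and 6.78 against 6.76. Mouse 3 was level with the control and mice 1 and 2 lower by -1.71 and -1.38, so the difference of -1.02 (SE 0.82) was near its error. Itgb1bp2, a muscle chaperone known as melusin, was at 4.60, 4.88 and 4.60 against 4.60. Itgb3bp, a centromere protein, was at 3.54, 3.49 and 3.54 against 3.66, and Itgbl1, a secreted protein with integrin-like repeats, at 4.97, 5.06 and 5.07 against 4.97. The last 3 lay under the background limit on each array.

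Proteins that couple integrins to the cytoskeleton gave no uniform direction. Of 31 measured genes, 4 were at least 2-fold lower and 0 at least 2-fold higher on each MPN array, with a median difference of 0.17 against 0.18 for all genes. By that size, 5.78% of all genes were lower and 1.13% higher. Fermt2, kindlin of mesenchymal cells, was at 4.92, 4.91 and 5.42 against 8.03, a difference of -2.94 (SE 0.30). Parva, the parvin that joins integrin-linked kinase in those cells, was at 5.61, 5.36 and 5.21 against 7.15, and Actn1, an actin crosslinker, at 5.82, 5.25 and 6.75 against 7.88. Among genes of this list used in blood cells, Parvg and Fermt3 were higher on each MPN array and Fyb was mixed. These are not all such genes. Rasgrp2 was also higher on each, and Apbb1ip and Skap2 had mice on both sides of the control. Parvg, the parvin of blood cells, was at 7.61, 8.45 and 6.78 against 5.87, a difference of 1.74 (SE 0.75). Fermt3, the kindlin of blood cells, falls outside the rule for named genes and was picked with its values known. It was at 6.25, 6.05 and 6.26 against 5.15, a difference of 1.04 (SE 0.18). Fyb, an adaptor of blood cells that is likewise outside the rule, was at 6.32, 5.58 and 8.70 against 7.84, with mice on both sides of the control.

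Ligands of integrins and partners of laminins had a larger lower part. Of 25 ligand genes measured, 7 were at least 2-fold lower on each MPN array and 0 higher, and the median difference was 0.00. Of all genes, 5.78% were lower and 1.13% higher by that size. Vcam1 and Ibsp, among the 7, are also counted among the stromal and bone-forming cell markers above. Vcam1, the ligand of Itga4 and Itga9, was at 7.87, 5.97 and 8.15 against 11.06, a difference of -3.74 (SE 1.06). Tnc, the tenascin bound by Itga9 and Itgav, was at 8.30, 8.11 and 9.01 against 11.83, a difference of -3.36 (SE 0.44). Postn, a matricellular ligand of Itgav, was at 4.60, 4.73 and 7.36 against 10.77, with mouse 3 apart from the other MPN mice. Fbln5, an elastic fibre protein that binds integrins, was at 6.14, 7.23 and 6.01 against 9.59.

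Of 18 laminin partners, 4 were at least 2-fold lower on each MPN array, where 5.78% of all genes were, and 0 higher, with a median difference of -0.07. Of these 4, 3 were sarcoglycans, members of the dystrophin complex that, with dystroglycan, links laminin to the cell. Sgce was at 5.41, 5.14 and 4.71 against 8.33, Sgcd at 4.66, 4.94 and 4.15 against 7.52, and Sgcb at 4.68, 4.27 and 4.30 against 7.14. Smoc1, a calcium-binding basement membrane protein, was at 4.98, 4.63 and 4.61 against 6.02. Dag1, the gene of dystroglycan, also outside the rule for named genes, was at 7.06, 6.00 and 5.87 against 6.39 and crossed the control.

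**Figure D5:**
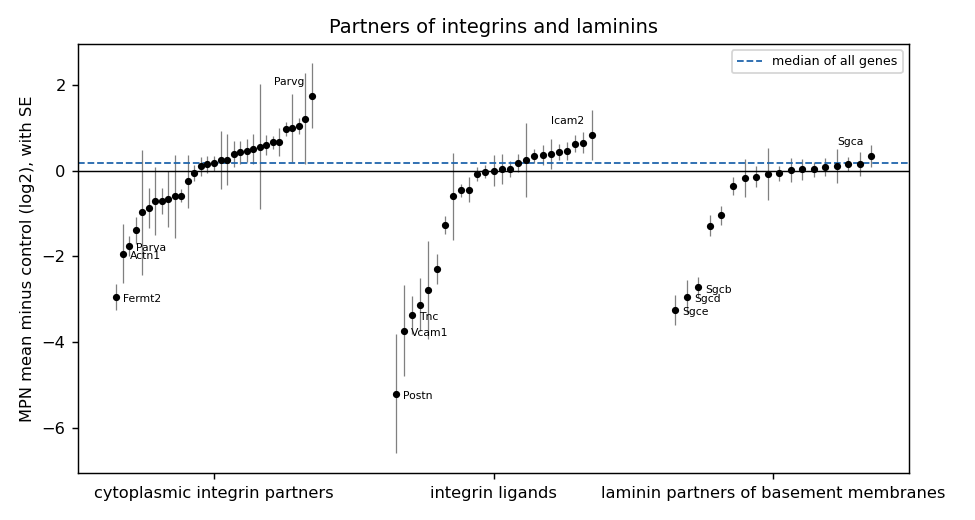
Difference (log2, MPN mean minus control) with its standard error for 31 cytoplasmic partners, 25 ligands and 18 basement membrane partners, sorted within each list; the dashed line is the median of all genes. Fermt2, Postn and Sgce have the lowest values of their lists, at -2.94, -5.20 and -3.24.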

How the data were processed

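Amplified RNA was hybridised to Affymetrix mouse gene arrays, per the labels and design text. The authors deposited log2 values from RMA, per the submitters' processing notes. RMA corrects background, equalises the arrays' distributions and compresses low signals. Its version and the genome build were not given in the sources used here. The table holds 35556 probe sets, 21789 with 1 gene symbol, 1621 with several and 12146 unnamed here. The array number, not depth, limits precision. Taking the brightest probe set of each gene left 19938 genes. The test was limma's moderated linear model (version 3.58.1, R 4.3.3), two-sided, adjusted by Benjamini-Hochberg across the 19938 genes. Its 2 residual degrees of freedom come from the MPN mice, and the lone control is taken to vary as they do. The background limit is the 95th percentile of 1190 receptor genes' means. The members, roles and lists were chosen with earlier results of these data known. Every member is named, and of each partner list the 4 largest absolute differences above background. Fermt3, Fyb, Rasgrp2, Apbb1ip, Skap2, Ibsp and Dag1 were added outside this rule. On simulated data for this comparison over 19938 genes, 17.1% of changes of 2 (log2), 54.8% of 4 and 79% of 6 were recovered, with 5 false calls. Alternatives left out each MPN mouse and changed the probe set rule, the filter, the scaling, the variance prior and the features tested.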

Additional observations from a re-analysis of the deposited data

How the results depend on the processing

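With 1 control, no difference separates the group from that mouse, and values near 5.21 are compressed. No gene passed in the deposited scaling or without any 1 MPN mouse, and 95 passed after cyclic loess and 153 after the receptor gene shift, Itga1 and Itgb5 the only members among them. The 11 lower members stayed 11 after cyclic loess and after either median shift, and were 9 after repeated quantile normalisation, without Itga11 and Lamb1. Leaving out a mouse can only keep or add members under the 2-fold rule. Without MPN mouse 3 the lower members were 12, which adds Itgb1bp1. Without each MPN mouse in turn, the count of higher members ran from 1 to 3. The variance prior, the features tested and the filter change no member's values, and the probe set rule changes only Itgad, so 11 under these says little. The receptor gene shift moved the leukocyte median to 0.68, the mesenchymal to -1.68 and the laminin to -0.58. Among members above background, a choice that favours those that differ, the last 2 were -2.18 and -0.97. Repeated quantile normalisation gave -1.13 for the mesenchymal chains. Of 481 member values under alternatives, 22 changed sign. Many of the 481 could not, since the variance prior, the features tested and the filter repeat the main difference, as does the probe set rule except for Itgad. After repeated quantile normalisation, Itga8 was at -0.022, Itgb1bp2 -0.022, Itgb6 -0.17, Itgbl1 -0.016 and Lama1 -0.014. After cyclic loess they were at -0.092, -0.12, -0.18, -0.13 and -0.14, and Lamb3 at -0.00067. After the receptor gene shift they were at -0.12, -0.16, -0.22, -0.19 and -0.20, with Itga7 at -0.055, Lama3 at -0.016 and Lamb3 at -0.070. Itgb6 was at -0.0059 after the shift to 1 median over all genes. Without each MPN mouse in turn, Itga2 ran from -0.16 to 0.064 and Itgb3 from -0.41 to 0.086, positive without mouse 3. The cause of these changes was not tested. No paired analysis was possible because there was only 1 control mouse.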

Other observations

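Some low member values were shared with many probe sets of the same array to all 5 decimals given. Lama1 had the value of 34 probe sets, itself included, on the array of MPN mouse 1 and of 45 on that of mouse 2. Itgax shared its value with 35 on the array of mouse 2, Itgb5 with 30 on that of mouse 3, and Lama2 and Itgb1bp2 with the same 25 on that of mouse 3. Itgb1bp2 read 4.60 on MPN arrays 1 and 3 and on the control array.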
